A study of Mus musculus with 6 samples.

Results

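The genes described here are 10 genes of mast cells and their granules in the mouse, read in 6 RNA-seq libraries of intestine. They were chosen by name: the chymases Mcpt1, Mcpt2, Mcpt4 and Cma1, the carboxypeptidase Cpa3, the tryptases Tpsab1 and Tpsb2, the IgE receptor chains Fcer1a and Ms4a2, and the histamine-forming enzyme Hdc. All 10 are among the 32219 genes of the deposited table. The libraries are labelled KO (3 libraries) and WT (3 libraries), and per the labels' protocols all were made from polyA-selected RNA with a stranded low-input kit for total RNA. The label lists epithelium, immune cells and neurons of the gut wall as the cells sampled, and the design text names the whole duodenum. The knocked-out gene, any Cre line or promoter that drives the deletion, the strain, the age and sex of the mice, and whether each library is 1 animal are not stated there. The p-values therefore cover only library-to-library spread, and that spread may be technical. No agent or treatment is labelled for either group.

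Mast cells are tissue-resident granulocytes that are best known for binding IgE and releasing stored mediators. In the mouse gut they are described in a mucosal form, whose granules hold the chymases Mcpt1 and Mcpt2, and in a connective tissue form of the submucosa and muscle layers, which stores Mcpt4, Cma1, the tryptases and Cpa3. In bulk tissue, fewer mast cells and less RNA per cell cannot be told apart.

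Values of KO 1 exist for a limited set of chromosomes, 1 and 10 to 18 plus the start of chromosome 19. It lists 9729 genes above 0, against 22061 to 22768 in the other 5 libraries. Of the 10 mast cell genes, KO 1 covers 7, and its zeros for Cpa3, Ms4a2 and Hdc are treated as missing. Where KO 1 has values, its linear abundances were divided by 2.12, their median ratio to the other libraries, and put back on the log scale; these are called rescaled. Markers of gut position set KO 1 apart from the other 5 libraries, and it is those 5 that go against the duodenum named in the design text. Gata4, which marks jejunum and duodenum, stood at 5.19 rescaled in KO 1, against 0.43 to 0.63 in the other 5, and the ileal bile acid binding gene Fabp6 at 3.91, against 8.16 to 8.76. Hoxb9, a gene of the distal gut, stood at 0.16 rescaled in KO 1, against 4.10 to 4.29. The comparison of KO with WT therefore rests on KO 2 and KO 3 against WT 1, WT 2 and WT 3, and KO 1 is given as values. Both of the 2 genes in the series title had signal in KO 2 and KO 3. Dhx9 stood at 6.17 and 6.08 in KO 2 and KO 3, against 5.94, 6.01 and 5.97 in WT. Ffar3 was low, at 0.35 and 0.59 in KO 2 and KO 3, against 0.60, 0.18 and 0.46 in WT. Such values per gene in bulk tissue cannot show whether part of a gene, or a gene in some cells only, was deleted.

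Markers of the labelled cells were present in the 5 libraries. The epithelial adhesion gene Epcam stood at 8.22 and 8.42 in KO 2 and KO 3, against 8.10 to 8.45 in WT, the leukocyte gene Ptprc at 5.52 and 3.63, against 3.52 to 5.03, and the neuronal gene Elavl4 at 1.74 and 2.27, against 1.66 to 1.97. All levels in the text are the deposited log values, read as log2(abundance + 1), unless a rescaled or linear value is named.

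As mast cell markers, the genes themselves were only partly present. Of the 10 genes, 6 were above 0 in at least 3 of the 5 libraries and were tested, and 4 (Mcpt4, Cma1, Tpsab1 and Fcer1a) were listed at 0 in all 5. Mcpt1, Mcpt2 and Hdc were above 0 in every one of the 5, while Cpa3, Tpsb2 and Ms4a2 reached at most 0.19, 0.23 and 0.07. Fcer1a, which encodes the chain of the high-affinity receptor that binds IgE and which defines the receptor on mast cells and basophils, had no signal in any of the 6 libraries. Depth is unknown, so a gene listed at 0 may still be transcribed at a level that these libraries did not show.

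**Figure D1:**
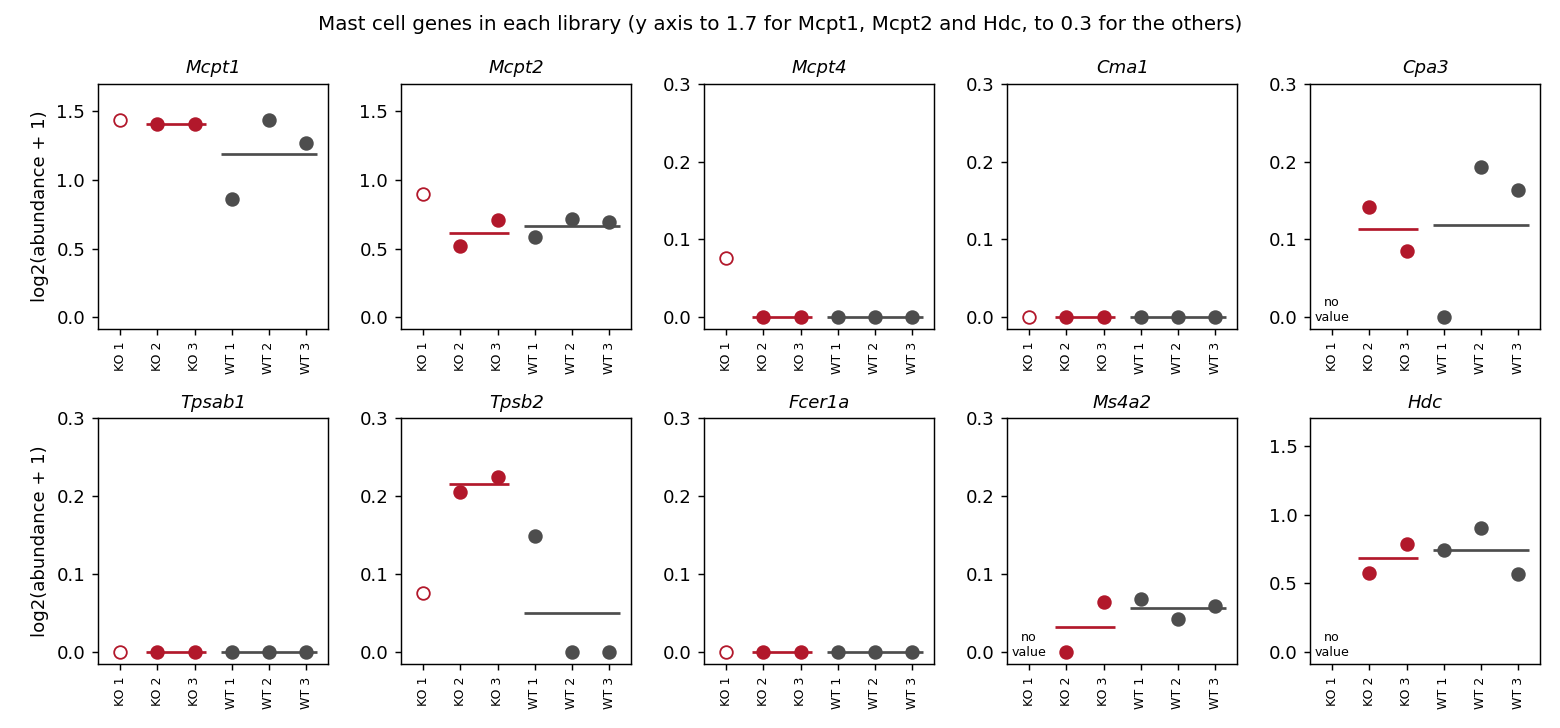
Level of each of the 10 mast cell genes, as log2(abundance + 1) on the y axis, in the KO libraries (red) and the WT libraries (grey), with lines at the group means of KO 2 and KO 3 and of WT. KO 1 is an open circle at its rescaled value or is marked as having no value. Mcpt1 lies between 0.86 and 1.44 over the 6 libraries, and the panels of Cma1, Tpsab1 and Fcer1a show 0 throughout.

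Among the chymases, the signal came from the pair of genes that mark the mucosal form. Mcpt1, the chymase of mucosal mast cells that is released in intestinal worm infection, stood at 1.41 in KO 2 and 1.41 in KO 3, against 0.86 in WT 1, 1.44 in WT 2 and 1.27 in WT 3. KO 1 stood at 2.20 as deposited and 1.43 rescaled. WT 1 was the lowest library and WT 2 the highest, so the KO values lay inside the WT range. Mcpt2, the second mucosal protease, stood at 0.52 and 0.70 in KO 2 and KO 3, against 0.58, 0.71 and 0.70 in WT 1, WT 2 and WT 3. The groups overlapped here too, with KO 2 the lowest of the 5.

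The connective tissue chymases gave another picture. Mcpt4, a chymase of connective tissue mast cells, was listed at 0 in KO 2, KO 3 and all 3 WT libraries, and KO 1 had 0.16 as deposited and 0.08 rescaled. Cma1, which encodes mMCP-5, a protease with elastase activity stored together with Cpa3, was listed at 0 in all 6 libraries. The annotated transcripts of the 4 chymases are of like length, 1014 bases for Mcpt1, 1061 for Mcpt2, 1108 for Mcpt4 and 1074 for Cma1, so their levels can be set side by side whether or not the authors divided by length. On the linear scale, taking the logs to base 2, Mcpt1 made up 79.2% and 72.4% of the summed chymase signal in KO 2 and KO 3, against 62.2%, 72.7% and 69.5% in WT 1, WT 2 and WT 3. The linear ratio of Mcpt1 to Mcpt2 was 3.22 ± 0.84 in KO (SD, n = 2) and 2.20 ± 0.51 in WT (SD, n = 3). The ranges overlapped, with KO 3 at 2.63 and WT 2 at 2.66. KO 1, at 1.97, was the lowest of the KO libraries.

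The chymase genes are close relatives, which bears on how reads are told apart. Over the coding sequence, Mcpt1 is identical to Mcpt2 at 82.1% of aligned bases, to Mcpt4 at 86.4% and to Cma1 at 65.3%. The longest run of bases that the Mcpt1 transcript shares with Mcpt2 is 49 and with Mcpt4 46, and with Cma1 it is 15. Read length and the treatment of reads with several matches are not stated in the labels, so a small part of the signal of Mcpt1, Mcpt2 and Mcpt4 may be assigned to the wrong gene. The stretch of 90 bases where the other 3 genes differ most from Mcpt1 without a gap is shown to let the letters that separate them be seen. It covers coding positions 344 to 433 of Mcpt1, Mcpt2 and Mcpt4 and 386 to 475 of Cma1, counted from the A of the start codon, and capitals mark bases that differ from Mcpt1 (GENCODE vM21, GRCm38, 5′ to 3′ on the coding strand).
Mcpt1 (chr14:56019350-56019439, plus strand): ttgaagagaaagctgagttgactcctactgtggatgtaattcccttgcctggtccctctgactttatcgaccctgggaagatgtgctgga
Mcpt2 (chr14:56043684-56043773, plus strand): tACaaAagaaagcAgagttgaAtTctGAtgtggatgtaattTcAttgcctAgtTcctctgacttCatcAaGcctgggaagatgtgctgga
Mcpt4 (chr14:56060660-56060749, minus strand): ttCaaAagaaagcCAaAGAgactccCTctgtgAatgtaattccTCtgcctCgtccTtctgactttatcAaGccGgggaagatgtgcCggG
Cma1 (chr14:55942290-55942379, minus strand): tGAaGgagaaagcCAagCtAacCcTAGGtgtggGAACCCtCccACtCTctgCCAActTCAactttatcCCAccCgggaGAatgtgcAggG
In this stretch Mcpt2 differs from Mcpt1 at 15 bases, Mcpt4 at 19 and Cma1 at 38.

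All 4 chymase genes lie in 1 cluster on chromosome 14, with the neutrophil protease gene Ctsg and the granzyme genes (GRCm38). In gene order from low to high coordinate it runs Cma1 (55941451 to 55944675, minus strand), Cma2, Mcpt1 (56017971 to 56020384, plus strand), Mcpt9, Mcpt2 (56042041 to 56044642, plus strand), Mcpt4 (56059629 to 56062313, minus strand), Mcpt8 and Ctsg, then the granzymes up to Gzmb. Of the 15 genes of the cluster that were looked at, Mcpt1, Mcpt2 and Gzmb, a granzyme of cytotoxic lymphocytes, were above 0 in all 5 libraries. Mcpt9 was at 0 and 0 in KO 2 and KO 3, against 0, 0.07 and 0.03 in WT. Mcpt8, the protease that marks basophils, and Ctsg were listed at 0 in all 6. Cma2 was listed at 0 in the 5 libraries and stood at 0.20 rescaled in KO 1. Of the 15 other serine protease genes of the cluster and of mast cells in the table, 3 were tested (Gzmb, Gzmc and Tpsg1) and 0 passed. Gzmb stood at 2.39 and 0.92 in KO 2 and KO 3, against 1.11, 1.25 and 1.27 in WT.

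**Figure D2:**
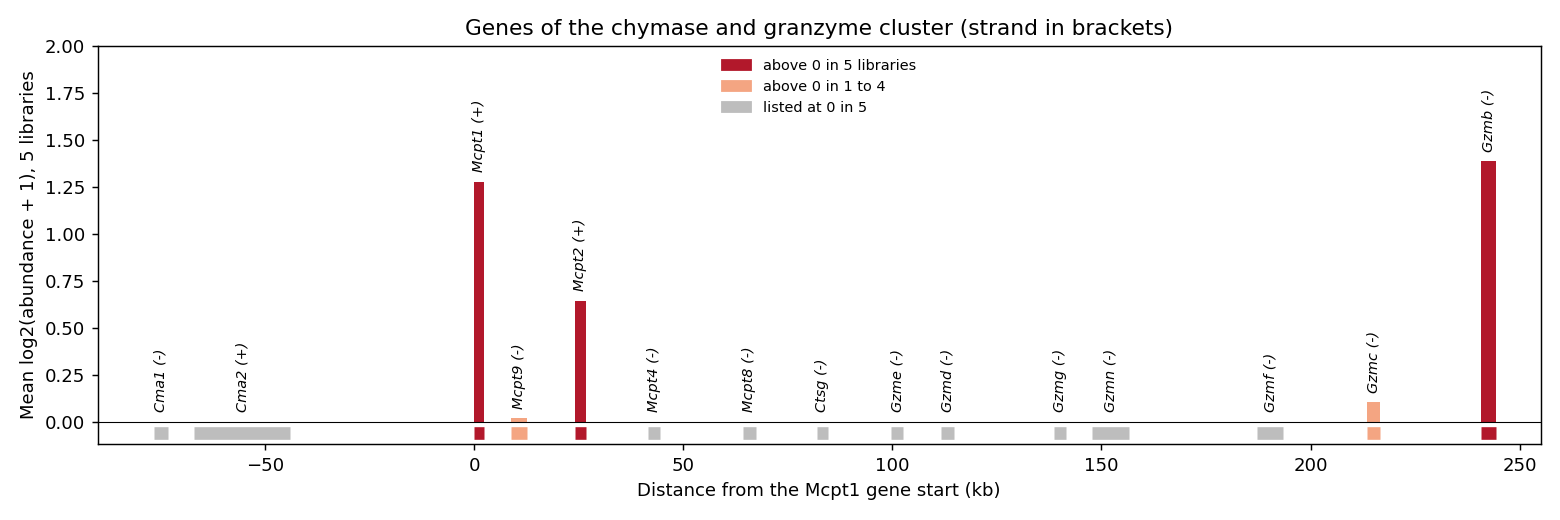
Mean log2(abundance + 1) over KO 2, KO 3 and WT 1 to WT 3 (y axis) of 15 genes of the chymase and granzyme cluster, against distance from the Mcpt1 gene start in kb (x axis), with gene bodies as blocks below the axis. Mcpt1 at 1.28 and Mcpt2 at 0.64 stand among neighbours at or near 0, with Mcpt9 at 0.02 between them, Gzmc at 0.10 and Gzmb at 1.39 at the far end, and heights are best compared among the chymases, whose transcripts are of like length.

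The promoters of Mcpt1 and Mcpt4 are shown because these genes of the same cluster are alike in sequence and unlike in signal. RefSeq's promoter table (GRCm38.p6) held 7 of the 10 genes and no entry for Mcpt2, Tpsab1 and Tpsb2. The windows are the 250 bases before each start, 5′ to 3′ on the gene's strand. Capitals mark a GATA motif, the letters bound by the GATA factors of the mast cell lineage, searched on both strands as AGATAA, then with its first base changed as TGATAA, with its last base changed as AGATAG, and with both changed as TGATAG.
Mcpt1 (chr14:56017714-56017963, plus strand): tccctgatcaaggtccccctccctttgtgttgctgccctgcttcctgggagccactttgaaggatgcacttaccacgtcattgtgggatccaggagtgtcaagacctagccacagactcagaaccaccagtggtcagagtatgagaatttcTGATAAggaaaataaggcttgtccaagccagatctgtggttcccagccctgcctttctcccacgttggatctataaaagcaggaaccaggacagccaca
Mcpt4 (chr14:56062311-56062560, minus strand): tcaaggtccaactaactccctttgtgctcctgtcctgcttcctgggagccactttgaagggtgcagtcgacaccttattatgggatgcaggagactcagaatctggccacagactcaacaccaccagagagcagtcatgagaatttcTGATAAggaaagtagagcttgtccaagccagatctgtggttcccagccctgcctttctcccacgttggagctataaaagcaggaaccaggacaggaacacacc
Cma1 (chr14:55944676-55944925, minus strand): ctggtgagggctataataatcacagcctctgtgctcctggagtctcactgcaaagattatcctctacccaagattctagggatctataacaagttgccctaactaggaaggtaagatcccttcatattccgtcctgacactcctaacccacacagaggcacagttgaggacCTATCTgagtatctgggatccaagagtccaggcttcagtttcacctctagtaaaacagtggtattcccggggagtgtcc
The Mcpt1 and Mcpt4 windows are identical at 84.1% of 246 aligned bases, with a shared run of 53 bases, and both hold TGATAA within a like stretch. In Cma1 the motif is AGATAG on the other strand, printed as CTATCT. Mcpt1 and Cma1 are identical at 55.4% of 231 aligned bases. A GATA motif was found in 7 of the 7 windows of the mast cell genes, and 26.5% of all 32851 promoter windows of this length hold one. E-box letters that the mast cell factor MITF can bind, either CATGTG on either strand or the palindrome CACGTG, were found in 1 of the 7, that of Fcer1a, and 17.6% of all windows hold one. Such a match describes letters and does not show a bound site.

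Cpa3, the carboxypeptidase that trims peptides such as endothelin and snake venom toxins, was near the floor (chromosome 3, 20215620 to 20242181, minus strand). It stood at 0.14 and 0.08 in KO 2 and KO 3, against 0, 0.19 and 0.16 in WT 1, WT 2 and WT 3. The KO values lay inside the WT range, and WT 1, the lowest library for Mcpt1, was also the one at 0 for Cpa3.

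The tryptases, which form heparin-bound tetramers in the granule, were low or not seen. Tpsab1, which encodes mMCP-7 (chromosome 17, 25343245 to 25345562, minus strand), was listed at 0 in all 6 libraries. C57BL/6 mice are known to lack its product, and the labels give no strain. Tpsb2, which encodes the tryptase mMCP-6 (chromosome 17, 25366305 to 25369098, plus strand), stood at 0.20 and 0.23 in KO 2 and KO 3, against 0.15 in WT 1 and 0 in WT 2 and WT 3. The values of KO 2 and KO 3 were above all 3 WT values. KO 1 stood at 0.16 as deposited, just above WT 1, and at 0.08 rescaled, inside the WT range. Tpsg1, the membrane-anchored gamma tryptase gene that starts 174 bases beyond the end of Tpsb2, stood at 3.72 and 3.54 in KO 2 and KO 3, against 3.68, 3.41 and 3.69 in WT.

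The IgE receptor is built of an IgE-binding alpha chain (Fcer1a), a beta chain that amplifies the signal (Ms4a2) and a gamma chain shared with other Fc receptors (Fcer1g). Fcer1a (chromosome 1, 173221284 to 173227214, minus strand) was listed at 0 in all 6 libraries. Ms4a2 (chromosome 19, 11615523 to 11623719, minus strand) stood at 0 and 0.06 in KO 2 and KO 3, against 0.07, 0.04 and 0.06 in WT 1, WT 2 and WT 3. Fcer1g, which macrophages and other myeloid cells also use, stood at 4.74 and 4.07 in KO 2 and KO 3, against 4.36, 4.85 and 4.28 in WT. The heavy chain gene of IgE, Ighe, was listed at 0 in all 6.

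Hdc, histidine decarboxylase, makes histamine in mast cells, basophils and the enterochromaffin-like cells of the stomach (chromosome 2, 126593667 to 126619299, minus strand). It stood at 0.57 and 0.79 in KO 2 and KO 3, against 0.74, 0.90 and 0.57 in WT 1, WT 2 and WT 3. The groups overlapped, with WT 2 highest and WT 3 and KO 2 lowest. The stomach gene Gast was listed at 0 in all 6 libraries, and the acid pump gene Atp4a stood at 0.13 and 0.24 in KO 2 and KO 3, against 0.26, 0.15 and 0.18 in WT. Other genes of amine cells stood higher. Means in KO 2 and KO 3, and in WT, were 2.69 and 2.50 for Chga and 1.46 and 1.38 for Tph1. For Ddc they were 3.55 and 3.43, and for Slc18a1 2.63 and 2.31. Of the 8 genes of this list, Hdc among them, 6 were tested and 0 passed, with 4 folds above 0 and 2 below. Which cells gave the Hdc signal was not tested.

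No mast cell gene passed the test between KO and WT. Of the 6 genes tested, 0 passed at an adjusted p under 0.05 by limma, against 1 of the 22047 genes tested (0.00454%). At an unadjusted p under 0.05 there was 1 of the 6, Tpsb2, against 2.23% of all genes tested. By sign alone, 2 of the 6 had a fold above 0 (Mcpt1 and Tpsb2) and 4 below, while 61.1% of all genes tested were above 0. The median log2 fold of the 6 was -0.02, against 0.03 over all genes tested.

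Mcpt1 had a log2 fold of 0.22 ± 0.20 (SE, limma adjusted p = 0.99998), with a 95% interval from -0.27 to 0.70. For Mcpt2 the fold was -0.05 ± 0.10 (SE, limma adjusted p = 0.99998), and the interval ran from -0.29 to 0.19. Hdc gave -0.06 ± 0.13, with an interval from -0.38 to 0.26. Intervals this wide on a scale where these genes stand near 1 leave room for changes in either direction.

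Tpsb2 was the gene whose KO and WT values did not overlap, as 13.6% of all genes tested did not, 9.82% with both KO libraries above all WT libraries and 3.77% with both below. Its log2 fold was 0.17 ± 0.06 (SE), with a 95% interval from 0.02 to 0.31, an unadjusted p of 0.0323 and an adjusted p of 0.99998 by limma over all genes tested. This gene passed the filter on low values through KO 2, KO 3 and WT 1. Cpa3, at -0.01 ± 0.07, and Ms4a2, at -0.02 ± 0.04, had intervals from -0.17 to 0.16 and from -0.12 to 0.07. For genes this close to 0, folds on the log2(abundance + 1) scale understate any relative change.

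**Figure D3:**
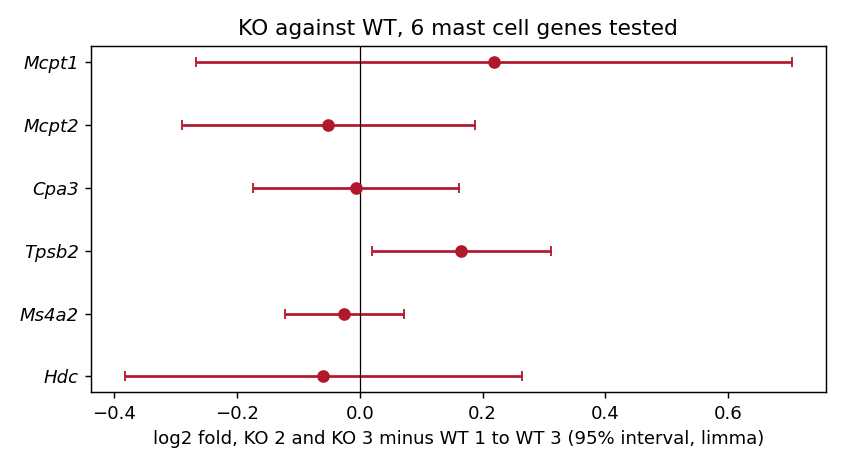
Log2 fold of KO 2 and KO 3 over WT 1 to WT 3 (x axis) for the 6 mast cell genes tested, with 95% intervals from limma. The interval of Tpsb2, from 0.02 to 0.31, leaves out 0 before adjustment over all genes, and the other 5 intervals hold 0.

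Summed over the 10 genes on the linear scale, the level was 3.06 ± 0.32 in KO (SD, n = 2) and 2.74 ± 0.62 in WT (SD, n = 3), a difference smaller than the spread between WT libraries. This sum is a description of genes whose transcripts differ in length. The chymase sum was 2.09 and 2.28 in KO 2 and KO 3, against 1.32, 2.35 and 2.03 in WT, and 2.62 in KO 1 after rescaling.

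The receptor and lineage genes on which mast cells depend are also used by other cells. Kit, the receptor for stem cell factor, which interstitial pacemaker cells of the gut also carry, stood at 4.17 and 4.23 in KO 2 and KO 3, against 3.89, 4.25 and 3.82 in WT. Its ligand gene Kitl stood at 4.97 and 4.91, against 5.02 in WT 2 and 5.19 in WT 3 and a WT mean of 5.07, so that both KO libraries lay below every WT library (log2 fold -0.13 ± 0.09, limma adjusted p = 0.99998). Gata2, a factor of the mast cell lineage, stood at 0.60 and 0.95, against 0.74, 0.63 and 0.56. Mitf, a factor that drives Kit and protease genes, stood at 1.24 and 1.37, against 1.58, 1.67 and 1.40, with both KO libraries below WT (-0.24 ± 0.16, limma adjusted p = 0.99998). Stat5a and Bhlhe41 went the other way, with both KO libraries above WT. Stat5a stood at 2.48 and 2.24 in KO 2 and KO 3, against 1.99, 2.21 and 2.20 in WT, and Bhlhe41 at 0.938 and 0.944, against 0.922, 0.914 and 0.593. These 4 of the 15 genes had no overlap between the groups, against 13.6% of all genes tested. Of the 15 genes of this list, 15 were tested and 0 passed in either direction, with 11 folds above 0 and a median of 0.07.

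The other lists of the pathway also gave no call. They were written with earlier results of these data known. In every list, the count of folds above 0 stands against 61.1% of all genes tested. Of 27 cytokine and receptor genes that act on mast cells, 24 were tested and 0 passed, with 17 folds above 0 and a median of 0.06. Il3 and Il13, cytokines that drive mast cell growth and type 2 responses, were listed at 0 in all 6 libraries, and Il9, a growth factor for mucosal mast cells, stood at 0.03 and 0.09 in KO 2 and KO 3, against 0.25, 0.18 and 0.03 in WT. Il1rl1, the IL-33 receptor gene, stood at 2.13 and 2.40, against 2.43, 2.36 and 2.02. The smallest p of this list belonged to Tslp, an epithelial alarmin, at 0.48 and 0.72 in KO 2 and KO 3, against 0.15, 0.50 and 0.41 in WT (log2 fold 0.25 ± 0.13, limma adjusted p = 0.99998).

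Of 22 genes of IgE receptor signalling, 21 were tested and 0 passed, with 16 folds above 0 and a median of 0.20. Syk, the kinase that the receptor recruits, stood at 4.16 and 3.62 in KO 2 and KO 3, against 3.73, 3.96 and 3.54 in WT. The adaptor gene Lat stood at 2.62 and 0.99, against 1.55, 2.13 and 0.67. Most of these genes are also used by lymphocytes, and the leukocyte content of the libraries differed: Ptprc stood at 5.52 in KO 2 and 3.63 in KO 3, against 5.03 in WT 2 and 3.52 in WT 3, with WT 1 in between, and the B cell gene Cd79a at 4.03 and 1.25, against 0.59, 3.10 and 0.31. The summed linear level of the 4 immune cell markers was 129 and 44.2 in KO 2 and KO 3, and 50.8, 103 and 49.1 in WT. The part of leukocyte content in the values of this list was not tested. WT 2, the WT library with the highest Ptprc, was also the highest of the 5 libraries for Mcpt1, Mcpt2, Cpa3 and Hdc, at 1.44, 0.71, 0.19 and 0.90. Tpsb2 and Ms4a2 stood at 0 and 0.04 in WT 2. In KO, Mcpt1 was at 1.41 in both libraries, and Cpa3 was higher in KO 2 than in KO 3, at 0.14 and 0.08. Mcpt2, Hdc, Tpsb2 and Ms4a2 were lower in KO 2 than in KO 3. The part of leukocyte content in the mast cell genes was not tested either.

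**Figure D4:**
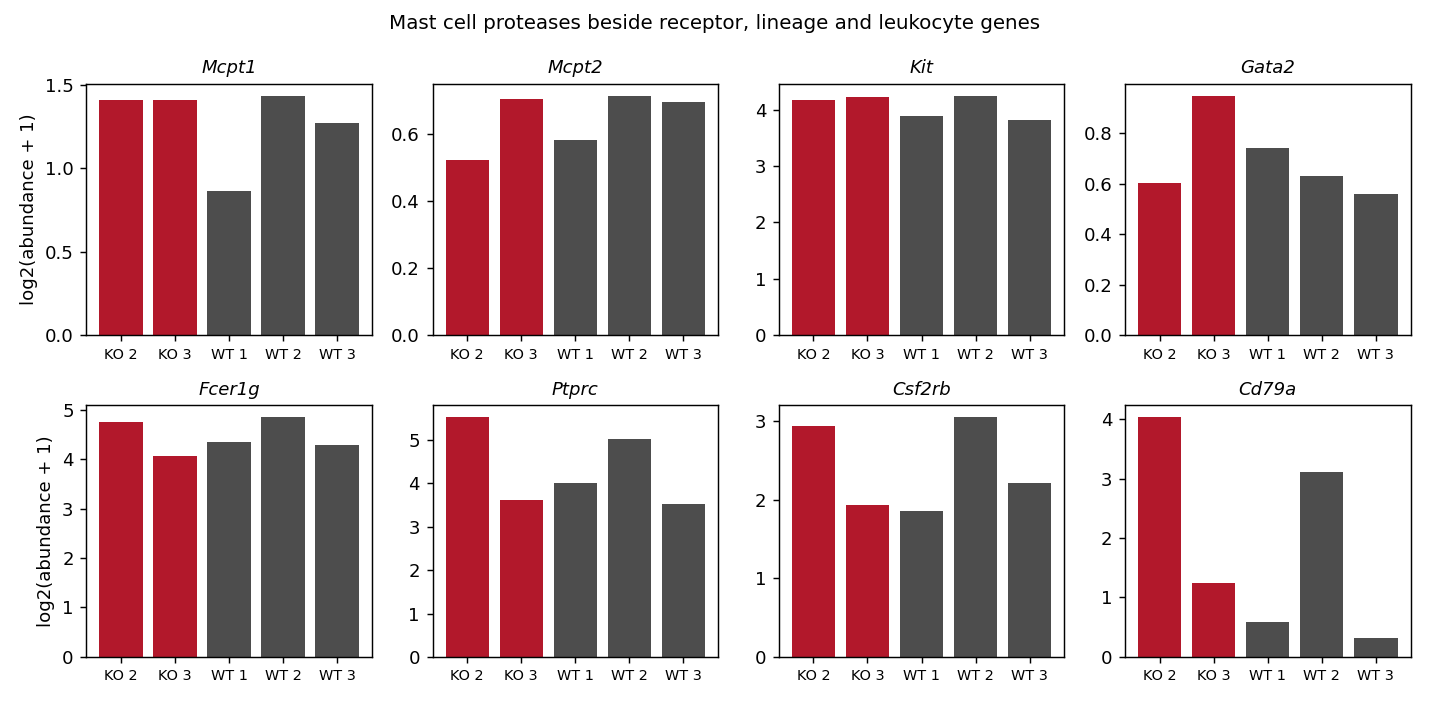
Level of 8 genes as log2(abundance + 1) (y axis, each panel with its own range from 0) in KO 2 and KO 3 (red) and WT 1 to WT 3 (grey). Ptprc, Csf2rb and Cd79a are highest in KO 2 and WT 2. Mcpt1 and Mcpt2 are highest in WT 2, at 1.44 and 0.71, with Mcpt1 lowest in WT 1 and Mcpt2 lowest in KO 2.

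Of 18 genes of granule packaging and protease processing, 18 were tested and 0 passed, with a median fold of 0.02. Srgn, the proteoglycan core that holds the proteases and which other leukocytes also store, stood at 4.53 and 3.51 in KO 2 and KO 3, against 3.42, 4.14 and 3.47 in WT. Ndst2, an enzyme of heparin sulfation, stood at 3.56 and 3.67, against 3.69, 3.62 and 3.32. Ctsc, the peptidase that activates chymases, stood at 5.95 and 5.55, against 5.64, 5.81 and 5.72.

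For histamine, 9 of 10 genes were tested and 0 passed, with 8 folds above 0 and a median of 0.04. Aoc1, the diamine oxidase that breaks down histamine in gut epithelium, stood at 6.85 and 6.95 in KO 2 and KO 3, against 6.98, 6.83 and 6.49 in WT. The receptor gene Hrh1 stood at 1.79 and 1.86, against 1.97, 2.11 and 1.71, and Hrh4, the receptor of leukocytes, was at 0 in KO 2 and KO 3 and above 0 in WT 2 alone, at 0.04. Of 14 lipid mediator genes, 14 were tested and 0 passed, with 6 folds above 0. Ltc4s, the leukotriene C4 synthase of mast cells and eosinophils, had the smallest p of this list, at 1.75 and 1.77 in KO 2 and KO 3, against 1.43, 1.45 and 1.39 in WT. Both KO libraries were above all WT libraries (log2 fold 0.34 ± 0.14, unadjusted p = 0.0501, adjusted p = 0.99998 by limma), and KO 1 stood at 1.66 after rescaling.

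Among other mast cell receptors, 17 of 20 were tested and 0 passed, with 6 folds above 0. The connective tissue mast cell receptors Mrgprb1, Mrgprb2 and Mrgprx1 were listed at 0 in the 5 libraries that cover them. Of 15 protease targets and inhibitors, 15 were tested and 0 passed. Of their folds 13 were above 0, against 61.1% of all genes tested, with a median of 0.06. F2rl1, the receptor that tryptase cleaves, averaged 4.81 in KO 2 and KO 3, against 4.72 in WT, and Ocln, a junction protein that Mcpt1 is known to degrade, at 4.71 and 4.83, against 4.84, 4.68 and 4.80. Of the 12 tuft cell and type 2 immunity genes, 10 were tested and 0 passed, with 7 folds above 0 and a median of 0.08.

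Cells that share mast cell genes were looked for by their own markers. Of 5 basophil markers, Mcpt8 and Prss34, which define these cells, were listed at 0 in all 6 libraries, and Csf2rb, a receptor chain of many myeloid cells and B cells, stood at 2.94 and 1.93 in KO 2 and KO 3, against 1.86, 3.05 and 2.22 in WT. Il3ra stood at 1.71 and 1.76 in KO 2 and KO 3, against 1.66, 1.91 and 1.71 in WT. Cd200r3 stood at 0 and 0.11, against 0.04, 0.09 and 0. The summed linear level of the basophil list was 8.93 and 5.26 in KO 2 and KO 3, and 4.82, 10.1 and 5.93 in WT. Most of this sum came from Csf2rb and Il3ra, so it is not a measure of basophils alone. Of the 5 genes, 3 were tested and 0 passed. Of 5 eosinophil markers, Prg2, a defining granule protein gene, was listed at 0 in the 5 libraries that cover it. Epx, another such gene, was at 0 and 0.06 in KO 2 and KO 3, against 0, 0.10 and 0 in WT. The other 3 were tested, 0 passed, and all 3 folds were above 0. Ccr3, the eotaxin receptor gene, had the smallest p, at 0.54 and 0.78 in KO 2 and KO 3, against 0.28, 0.42 and 0.50 in WT, with no overlap (log2 fold 0.26 ± 0.11, unadjusted p = 0.05003, adjusted p = 0.99998 by limma). Siglecf, a surface lectin gene of eosinophils, averaged 0.65 in KO and 0.59 in WT, and Il5ra, the IL-5 receptor gene, 0.37 in KO and 0.16 in WT. The eosinophil list summed to 1.68 and 1.32 in KO 2 and KO 3, and to 0.70, 1.25 and 0.96 in WT on the linear scale. Of 4 neutrophil markers, 4 were tested and 0 passed, and their summed linear level was 4.88 and 7.59 in KO 2 and KO 3, against 4.05, 4.37 and 3.47 in WT. Most of this sum came from Retnlg, at 2.31 and 2.86 in KO 2 and KO 3, against 2.32, 2.23 and 1.79 in WT. S100a8, a calcium-binding protein gene of neutrophils, stood at 0.69 and 0.99 in KO 2 and KO 3, against 0, 0.59 and 0.49 in WT (unadjusted p = 0.0488, adjusted p = 0.99998 by limma). S100a9 had a fold below 0, at 0.23 and 0 in KO 2 and KO 3, against 0, 0.19 and 0.36 in WT. Ly6g averaged 0.30 in KO 2 and KO 3 and 0.18 in WT.

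The genes whose pattern over the 5 libraries was most like that of Mcpt1 were found by the root mean square difference between centred profiles, among 12946 genes with a mean of at least 1. Ikzf5 was closest, at 0.02, followed by Cenpk, Tmsb15b2, Fundc2 and Cdc45, at 0.04 to 0.05, against a standard deviation of 0.24 for Mcpt1 itself. Ikzf5 stood at 3.36 and 3.38 in KO 2 and KO 3, against 2.85, 3.42 and 3.27 in WT 1, WT 2 and WT 3, so it shares the low value in WT 1. For Tpsb2 the closest were Slc26a11, Limk2, Ttc38, Lmntd2 and Txndc9, and for Cpa3 Angel1, Rybp, Ube2m, Mtmr2 and Gtpbp3. With 5 libraries and this many genes, close profiles are found for any pattern. Fcer1a, at 0 throughout, has no pattern to match.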

How the data were processed

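The values come as 1 table of 6 libraries that the authors deposited on a log scale, read here as log2(abundance + 1). The build is mm10, per the submitters' processing notes. For the aligner, counter, strand setting, abundance unit, log base and added constant, nothing is given in the sources used here. Taking the base as 2 is a choice made here. No counts or depth can be had, so no counting interval is given. Of 32245 rows, 26 with a date for a symbol were left out. Positions are from GENCODE vM21 (GRCm38), which places no exon of another gene over an exon of the 10 genes. KO 1 was rescaled over 2160 covered genes at 4 or more on average in the other libraries.

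For the comparison, limma (version 3.58.1, under R 4.3.3) was fitted with its variance trend to KO 2, KO 3 and the WT libraries. It took in the 22047 genes that 3 or more of these 5 had above 0, and tests were 2-sided. Benjamini-Hochberg adjustment ran over all of them, with a threshold of 0.05. Sequences were aligned with Biopython 1.88. The rule for names was all 10 genes, up to 4 genes of smallest p in each other list, and any gene whose role is needed to describe its list; genes of that last kind were picked with their values in view. The members, lists and main fit were chosen with earlier results of these data known.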

Additional observations from a re-analysis of the deposited data

Results flagged for a closer look

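KO 1 was outside the comparison of KO with WT, and 2 of the 7 mast cell genes that it covers stood above every WT library there after rescaling. Mcpt2 stood at 0.90, against at most 0.71 in WT. Mcpt4 stood at 0.0764, against 0 in all 3 WT libraries. For reference, KO 1 stood above all 5 other libraries after rescaling at 18.2% of 9946 covered genes and below all of them at 39.7%. That rule is stricter than standing above WT alone, and these genes had passed the filter, which Mcpt4 did not. The share of genes above WT alone was not computed. Of 2289 covered genes at 0 in the other 5 libraries, 106 (4.63%) were above 0 in KO 1. KO 1 also differs from the other libraries in gut position markers, and the part of that in these values was not tested.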

How the results depend on the processing

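Of the 10 genes, the 6 tested gave 0 calls in the main comparison, and those tested gave 0 in every alternative run. With a mean of at least 1, Mcpt1 was the only one of them tested. Over all genes the 1 call was Gm49380, and the count was 0 with all 6 libraries as deposited, without a filter, with a mean of at least 1, with an added constant of 0.1, and in each fit without 1 library (0 to 0). Replicate numbers recur in both groups, and without KO 1 there are 2 pairs. Their deviations from the group means correlated across genes at 0.28 and 0.33. Both values rest on the same difference between KO 2 and KO 3 and are not separate evidence, so pairing cannot be decided. With the replicate block the count was 0 over 5 libraries and 0 over 6. Over 5 libraries WT 1 is alone in its block, so that fit gives the same folds as leaving out WT 1. Mcpt1 (0.05 to 0.48) and Tpsb2 (0.04 to 1.03) kept a fold above 0 in every setting that tested them. Tpsb2 was not tested without WT 1, KO 2 or KO 3, where it fails the filter. Mcpt2 changed sign with KO 1, to 0.25 as deposited and 0.0439 rescaled, and Cpa3 with a constant of 0.1, to 0.0454. Over the balanced 6 libraries the replicate block cannot change a fold, so Mcpt2 stood at 0.25 there too. With the block over 5 libraries Mcpt2 kept its sign, at -0.0922. With 1 library left out, folds ran from -0.143 to 0.0408 for Mcpt2, -0.0650 to 0.0314 for Cpa3, -0.0567 to 0.00723 for Ms4a2, -0.166 to 0.0467 for Hdc and 0.05 (without WT 1) to 0.34 for Mcpt1. The KO over WT ratio of the 10-gene sum was 1.12, and 1.10 relative to covered genes. The lowest adjusted p of these genes by limma was 0.718, in the fit of all 6 libraries as deposited. That fit counts the missing values of KO 1 as 0 and keeps its scale. In the main fit each was 0.99998. Causes were not tested. Depth is unknown.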
